A study of Mus musculus with 8 samples.

Results

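The 10 genes described here decide how pyruvate enters the mitochondrion and is turned into acetyl-CoA. They were the kinases of pyruvate dehydrogenase (Pdk1, Pdk2, Pdk3 and Pdk4), the phosphatase Pdp2, the complex subunits Pdha1, Pdhb and Dlat, and the carrier subunits Mpc1 and Mpc2. They were taken from the count table by their symbols, and all 10 were found among its 16540 gene symbols and were among the 12307 genes left after low counts were filtered. Liver mRNA had been sequenced from 8 male Apoe-/- mice fed a Western diet, of which 4 received vehicle, named DMSO in the table, and 4 received ISOGK at 20 mg/kg per day, both for 8 weeks. ISOGK is isoginkgetin, a biflavonoid of ginkgo that the study examined as an inhibitor of ATP-citrate lyase. Loss of Apoe, shared by both groups, raises plasma cholesterol, so neither group was wild type, and the age of the mice was not given in the sources used here. Reads on Apoe numbered 3252 to 6489 per library, which does not check the knockout, since counts per gene do not show which exons the reads came from.

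Pyruvate dehydrogenase is a large mitochondrial complex that converts pyruvate to acetyl-CoA and so commits carbon from glucose to oxidation or to citrate. The kinases phosphorylate its E1 subunit and switch the complex off, and the phosphatases remove the phosphate and switch it on. In liver, Pdk4 is known to rise in fasting, when fatty acids are burned and pyruvate is spared for glucose synthesis. Pyruvate reaches the complex through a carrier of the inner mitochondrial membrane that is built from Mpc1 and Mpc2.

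Each library held between 17457106 and 24461854 counts, and levels are given as CPM, the count relative to the size of its library after scaling with edgeR's TMM factors. The 8 hepatocyte markers summed to between 148095 and 192298 CPM in every library. The library of vehicle-treated mouse 4 stood apart in 11 of 11 skeletal muscle markers, whose summed level was 83.3 CPM there and at most 0.589 CPM in any other library, where Acta1, Myh1 and Tnnc2 had 0 counts. Pdk4 in that mouse was at 8.04 CPM, and the vehicle group ranged from 6.80 to 8.88 CPM. The summed level of the 4 cholangiocyte markers was 6.12 to 7.59 CPM with vehicle and 7.70 to 14.1 CPM with ISOGK, without overlap, and 1 of them, Sox9, was called higher. The lowest ISOGK sum was that of mouse 4, where Krt19, Krt7 and Epcam had 18, 8 and 12 counts. With vehicle these 3 markers had 13 to 30, 6 to 29 and 18 to 46 counts. For the 6 Kupffer cell markers the sum was 924 to 1195 CPM with vehicle and 733 to 958 CPM with ISOGK, and none of them was called. Of their log2 fold changes 5 were negative and 1 positive, with a median of -0.65 beside 0.0018 for all genes. Within the ISOGK group the libraries differed most from mouse 4, with a chi-square per gene of 85.9 to 99.8 against 33.1 to 67.1 for the other pairs. The part of these cell types in the results below was not tested. In bulk liver, fewer cells of a type and less RNA per cell cannot be told apart.

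Among the 10 genes, Pdk4 rose and Pdk2 fell with ISOGK, and no other member passed an adjusted p of 0.05 in edgeR's quasi-likelihood test. Of all 12307 genes, 4.11% were called higher and 3.44% lower, against 1 of the 10 members in each direction. Pdk4 was also the only member called with an absolute log2 fold change over 1, which 1.63% of all genes were. The groups did not overlap for 2 of the 10 members, against 15.3% of all genes. The log2 fold changes were positive for 5 members and negative for 5, with a median of 0.01, and the median of all genes was 0.0018.

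**Figure D1:**
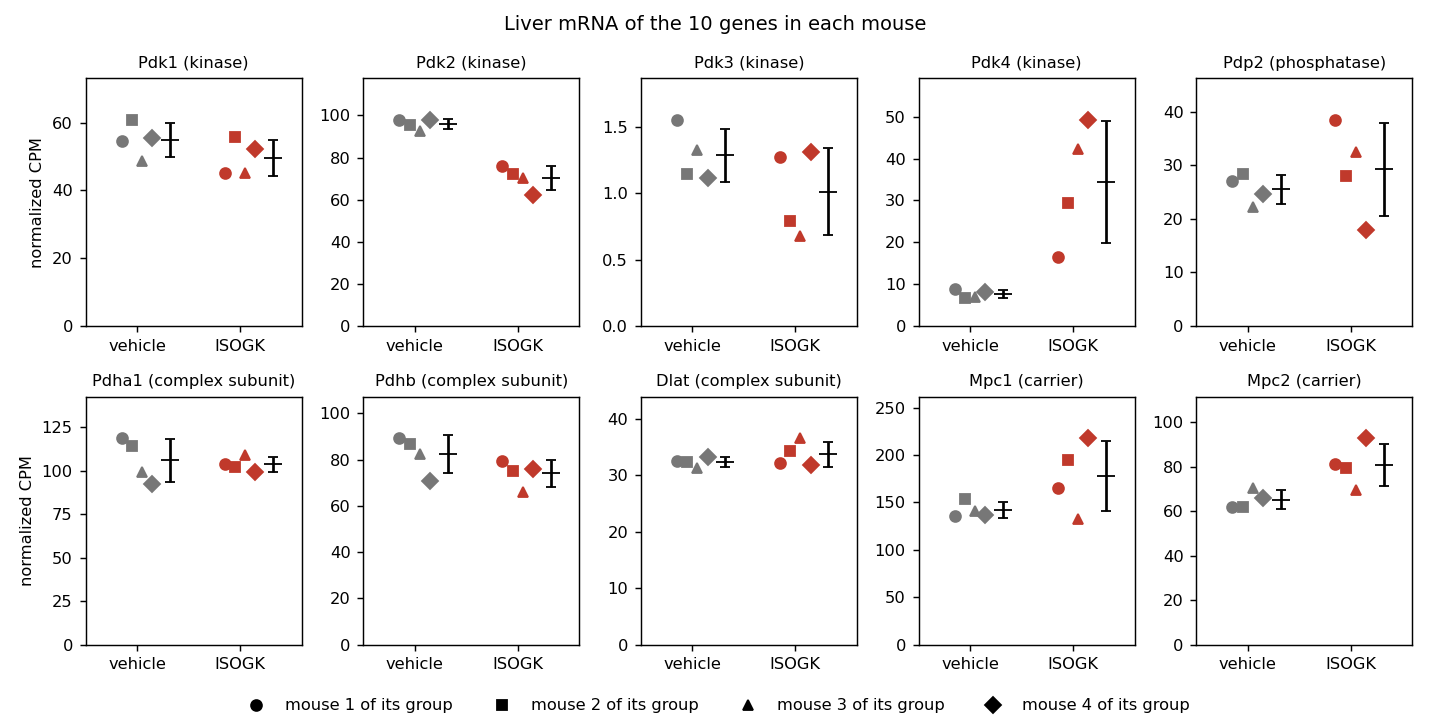
Normalized CPM of each gene in each mouse (vertical axis from 0, with its own scale for each gene), for 4 vehicle-treated (grey) and 4 ISOGK-treated (red) mice. Symbols mark the mouse number within its group, and the bar beside each group gives the mean and SD. The 4 ISOGK-treated mice lie between 16.5 and 49.3 CPM for Pdk4, all above the vehicle group, and between 62.3 and 76.2 CPM for Pdk2, all below it.

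Pdk4 encodes the kinase known to respond most to fasting. In the vehicle group it was measured at 8.88, 6.80, 7.05 and 8.04 CPM in mice 1 to 4, and in the ISOGK group at 16.5, 29.5, 42.3 and 49.3 CPM. All ISOGK-treated mice thus lay above all vehicle-treated mice, and the lowest of them stood well apart from the highest. The means were 7.69 ± 0.956 CPM (SD, n = 4) and 34.4 ± 14.5 CPM (SD, n = 4), a 4.48-fold rise. The log2 fold change was 2.16 with a standard error of 0.31 and a 95% confidence interval of 1.46 to 2.87 (edgeR, adjusted p = 0.00547). A two-sided exact permutation test gave p = 0.0286, the smallest that 4 mice against 4 allow. These values rested on 172 to 181 counts per library with vehicle and 337 to 941 with ISOGK. The highest ISOGK-treated mouse had 2.98 times the CPM of the lowest, against 1.31 times in the vehicle group, and the coefficient of variation was 42.0% against 12.4%. Leaving out each mouse in turn gave log2 fold changes of 1.94 to 2.39, with adjusted p of at most 0.0257. The gene (ENSMUSG00000019577.6) has 11 exons in its longest coding transcript and lies on the minus strand at chr6:5483351-5496309 (GRCm38).

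Pdk2 encodes the kinase that is known as abundant in liver, and its gene (ENSMUSG00000038967.13) lies on the minus strand at chr11:95026258-95041354. It was measured at 97.9, 95.4, 92.6 and 97.6 CPM in vehicle-treated mice 1 to 4 and at 76.2, 71.9, 70.2 and 62.3 CPM in ISOGK-treated mice 1 to 4. The groups did not overlap, and the ISOGK-treated mice spread more widely than the vehicle-treated mice. The means were 95.9 ± 2.46 CPM and 70.2 ± 5.81 CPM (SD, n = 4 each), 1.37-fold lower with ISOGK. On the log2 scale Pdk2 fell by 0.45 with a standard error of 0.09 and a 95% confidence interval of -0.64 to -0.26 (edgeR, adjusted p = 0.0102). The exact permutation test again gave p = 0.0286, and each library held 1189 to 2411 counts. Within the ISOGK group the order of the mice was opposite for the 2 kinases: mouse 1 had the highest Pdk2 and the lowest Pdk4, and mouse 4 had the lowest Pdk2 and the highest Pdk4. The vehicle group did not show this, since its mouse 1 had the highest level of both kinases. Without the muscle-marked vehicle mouse 4, the log2 fold changes were 2.18 for Pdk4 and -0.44 for Pdk2, and without ISOGK-treated mouse 4 they were 1.94 and -0.40, and both calls were kept in each case.

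The sequence just upstream of each of the 2 called genes is shown to give the ground that a promoter-binding factor would meet. The genes are transcribed from the minus strand, and the sequences are given 5′ to 3′ on that strand, ending next to the start. They come from RefSeq's promoter windows on GRCm38.p6, in which all 10 members were found with 13 windows. For Pdk4 the window ran into the GENCODE gene, so the 219 bases outside it are printed (chr6:5496310-5496528). For Pdk2 all 250 bases before the upstream start are printed (chr11:95041372-95041621), and capitals mark the E-box CACGTG.

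Pdk4: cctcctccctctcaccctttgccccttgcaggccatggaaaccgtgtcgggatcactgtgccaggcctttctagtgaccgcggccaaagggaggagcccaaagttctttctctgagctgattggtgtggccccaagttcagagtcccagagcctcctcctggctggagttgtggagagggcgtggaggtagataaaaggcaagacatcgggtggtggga

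Pdk2: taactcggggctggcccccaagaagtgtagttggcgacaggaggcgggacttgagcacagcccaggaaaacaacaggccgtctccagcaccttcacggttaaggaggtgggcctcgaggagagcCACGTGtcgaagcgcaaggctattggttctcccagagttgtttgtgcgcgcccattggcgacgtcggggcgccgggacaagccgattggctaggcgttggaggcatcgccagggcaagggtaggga

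The Pdk2 E-box began 126 bases before the start. Of 6 motifs searched as exact letters on both strands, none was found in the Pdk4 window. They were the PPAR element AGGTCANAGGTCA, the nuclear receptor half-site AGGTCA (which lies inside the PPAR element and the ERR element), the ERR element TCAAGGTCA, the FOXO site GTAAACA, the E-box CACGTG and the TATA box TATAAA. The E-box was in the windows of Pdk2 and Pdp2 and in 6.02% of all 32851 windows. The half-site was in 1 Mpc1 window and in 14.0% of all. The other motifs were in no member window and in 0.0335% (PPAR element), 0.387% (ERR element), 3.17% (FOXO site) and 12.4% (TATA box) of all windows. Sites with a mismatch, or outside these windows of 250 bases, were not searched. A window without an exact match was therefore not shown to lack such an element. By composition the whole Pdk4 window of 250 bases held 6 CpG dinucleotides at 58.8% GC and the Pdk2 window 19 at 62.4% GC. The median over the member windows was 18 CpG and 62.4% GC, against 6 and 52.4% over all windows, and of the 13 member windows only a Pdk1 window, with 2 CpG, held fewer than that of Pdk4.

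The remaining kinases did not pass the test. Pdk1 is the kinase that hypoxia is known to raise (chr2:71873224-71903858, plus strand). It had 54.6, 60.9, 48.7 and 55.3 CPM in the vehicle group and 45.2, 55.7, 45.1 and 52.2 CPM in the ISOGK group, and the groups overlapped. Its log2 fold change was -0.15 with a standard error of 0.10, and a 95% confidence interval of -0.37 to 0.08 (adjusted p = 0.414). Pdk3 (chrX:93764607-93832201, minus strand) was the lowest member at 1.12 to 1.56 CPM in the vehicle group and 0.679 to 1.31 CPM in the ISOGK group, with 12 to 34 counts per library. For Pdk3 the log2 fold change was -0.33 with an interval of -0.95 to 0.29 (adjusted p = 0.520), and no difference was detectable at this depth.

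**Figure D2:**
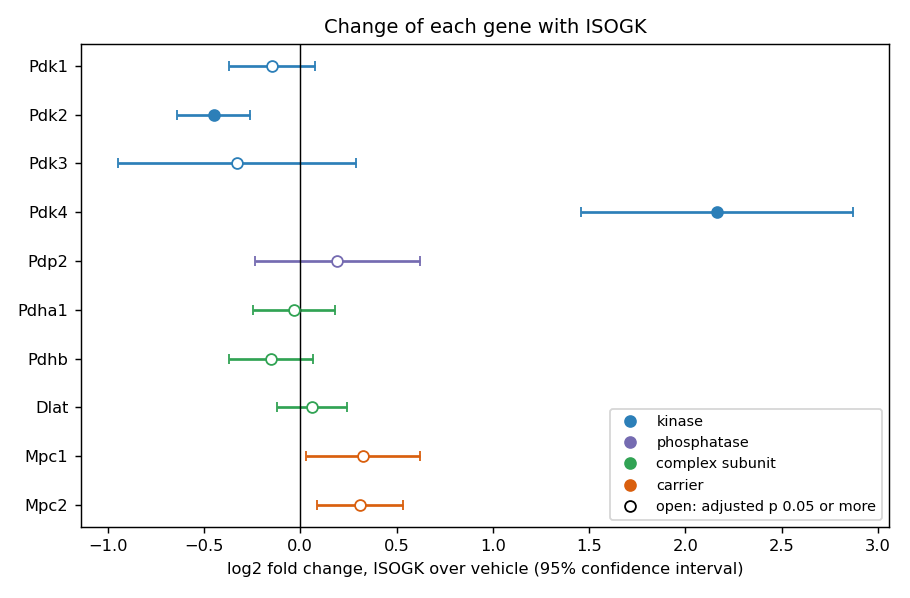
Log2 fold change of each gene, ISOGK over vehicle (horizontal axis), as points with 95% confidence intervals derived from edgeR's test statistic, 4 mice per group. Filled points passed an adjusted p of 0.05, and these are Pdk4 at 2.16 and Pdk2 at -0.45, while the intervals of Mpc1 and Mpc2 lie above 0 without an adjusted p under 0.05.

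To compare kinase levels with each other, CPM were divided by the length of the longest coding transcript in kb (GENCODE M21). Per kb, the vehicle group had 42.7 ± 1.10 of Pdk2, 10.6 ± 0.959 of Pdk1, 2.21 ± 0.274 of Pdk4 and 0.608 ± 0.0954 of Pdk3 (CPM per kb, mean ± SD, n = 4). In the ISOGK group they were 31.2 ± 2.59, 9.56 ± 1.02, 9.88 ± 4.15 and 0.479 ± 0.154, so that Pdk4 and Pdk1, apart in the vehicle group, overlapped. The share of Pdk4 among the summed kinases was 3.93 ± 0.419% in the vehicle group and 9.89%, 16.4%, 23.2% and 26.9% in ISOGK-treated mice 1 to 4. The share of Pdk2 was 76.1 ± 1.03% and 61.3 ± 7.40%, and the share of Pdk1 was 18.9 ± 1.32% and 18.7 ± 1.77%. The ratio of Pdk4 to Pdk2 per kb was 0.0517 ± 0.00539 in the vehicle group and lay between 0.140 and 0.510 in the ISOGK group, in mice 1 and 4. The summed kinases came to 53.3 to 57.4 CPM per kb with vehicle and 48.0 to 52.6 with ISOGK, with means of 56.1 ± 1.90 and 51.1 ± 2.16, which did not overlap. These shares and sums are a description, since they were not tested.

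**Figure D3:**
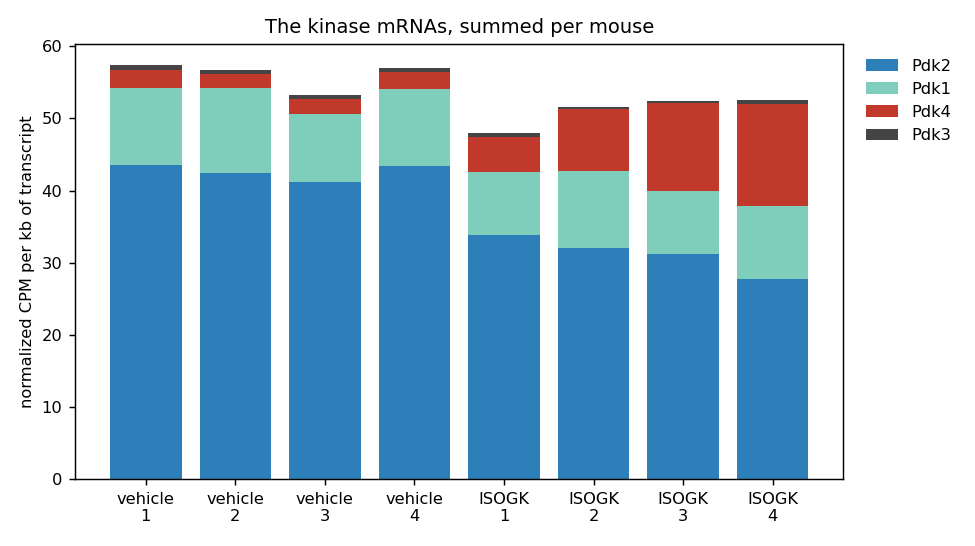
Stacked bars of the kinase mRNAs in each of 8 mice, in normalized CPM per kb of the longest coding transcript (vertical axis from 0). The red Pdk4 block is 3.93% of the bar on average in the vehicle group and reaches 26.9% in ISOGK-treated mouse 4, while the blue Pdk2 block shrinks.

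Pdp2 encodes the phosphatase that switches the complex back on, known to fall in fasting and diabetes and to answer to insulin (chr8:104591451-104599026, plus strand). It was measured at 27.0, 28.4, 22.2 and 24.6 CPM in the vehicle group and at 38.5, 28.0, 32.4 and 18.0 CPM in the ISOGK group. The vehicle values lay inside the span of the ISOGK values, and the ISOGK-treated mouse with the lowest Pdp2 was mouse 4, which also had the highest Pdk4. The log2 fold change was 0.19 with a standard error of 0.19 and an interval of -0.24 to 0.62 (adjusted p = 0.591). Without ISOGK-treated mouse 4 it was 0.37 and still not called (adjusted p = 0.121).

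None of the complex subunits passed the test. Pdha1 encodes the E1 alpha subunit that the kinases phosphorylate (chrX:160122209-160138413, minus strand). It had 119, 114, 99.4 and 92.0 CPM in the vehicle group and 104, 102, 109 and 99.1 CPM in the ISOGK group, which is a wide overlap. Pdhb, the E1 beta subunit (chr14:8165996-8173025, minus strand), had means of 82.3 ± 8.25 and 74.1 ± 5.78 CPM, and Dlat, the E2 acetyltransferase core (chr9:50634633-50659780, minus strand), had 32.4 ± 0.827 and 33.7 ± 2.18 CPM. The log2 fold changes and intervals were -0.03 (-0.25 to 0.18) for Pdha1, -0.15 (-0.37 to 0.07) for Pdhb and 0.06 (-0.12 to 0.24) for Dlat. The direction of Pdha1 turned to 0.024 without vehicle-treated mouse 1 and to 0.0028 without vehicle-treated mouse 2, and that of Dlat turned to -0.067 when libraries were scaled by their totals alone. The longest exon overlap of Pdha1 with Map3k15, on the opposite strand, is 425 bases, and Map3k15 had at most 34 counts in any library. That of Mpc1 is 217 bases with 4930506C21Rik, on the opposite strand and not among the genes counted. Reads from such overlaps could not be told apart if counting ignored strand. Per kb in the vehicle group, Pdha1 stood at 37.2 ± 4.36 and Pdhb at 54.4 ± 5.45, and their ratio was 0.684 ± 0.0289 there and 0.747 ± 0.0889 with ISOGK. These values rest on longest coding transcripts of 2848 bases for Pdha1 and 1513 for Pdhb. The means over their transcripts are 1166 and 1144 bases, so which gene stands higher depends on the length used.

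Mpc1 (chr17:8282904-8297661) and Mpc2 (chr1:165460637-165481214), both on the plus strand, were the members nearest to a call after Pdk4 and Pdk2. Mpc1 was measured at 136, 153, 141 and 137 CPM in the vehicle group and 165, 195, 133 and 218 CPM in the ISOGK group. Mpc2 had 61.9, 61.7, 70.6 and 66.1 CPM in the vehicle group and 81.2, 79.4, 69.4 and 92.8 CPM in the ISOGK group. In both genes, ISOGK-treated mouse 3 was the 1 mouse of its group that did not lie above all vehicle-treated mice: for Mpc1 it lay below every one of them, and for Mpc2 within their range. The log2 fold change of Mpc1 was 0.32 (SE 0.14, interval 0.03 to 0.62, adjusted p = 0.167) and that of Mpc2 was 0.31 (SE 0.10, interval 0.09 to 0.53, adjusted p = 0.0852). Exact permutation tests gave p = 0.143 for Mpc1 and p = 0.0571 for Mpc2. Without ISOGK-treated mouse 3, the changes were 0.43 (adjusted p = 0.0284) and 0.37 (adjusted p = 0.0307), which passed. With all mice the Wald test of DESeq2 also called Mpc2 (0.31, adjusted p = 0.0464) but not Mpc1. Other settings weakened both changes. Without ISOGK-treated mouse 4 they were 0.21 for Mpc1 (adjusted p = 0.357) and 0.24 for Mpc2 (adjusted p = 0.177). Scaling by library totals alone gave 0.18 for Mpc1 (adjusted p = 0.345) and 0.17 for Mpc2 (adjusted p = 0.276). The ratio of Mpc1 to Mpc2 per kb was 2.33 ± 0.229 in the vehicle group and 2.33 ± 0.273 with ISOGK. It rests on longest coding transcripts of 961 bases for Mpc1 and 1025 for Mpc2. The means over their transcripts are 678 and 1806 bases, so the size of the ratio depends on the length used.

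Ordered by CPM per kb in the vehicle group, the members ran from Mpc1 (148 ± 8.38) through Mpc2 (63.5 ± 4.11), Pdhb, Pdk2, Pdha1, Pdk1, Dlat (8.02 ± 0.205) and Pdp2 (4.49 ± 0.476) to Pdk4 and Pdk3. Only Pdk2 and Pdha1, neighbours in that order, overlapped between mice. The order rests on the longest coding transcript of each gene and was not computed with mean transcript length. For Mpc2 the longest coding transcript has 1025 bases, while the mean over its transcripts is 1806, so its place depends on the length used. By group means Pdk4 was the ninth in the vehicle group and the sixth with ISOGK, but its ISOGK values ran from 4.74 to 14.2 CPM per kb and overlapped those of Pdk1, Dlat and Pdp2, and Pdk1 overlapped Dlat, so the order among these 4 did not hold in every mouse.

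The other genes of the pathway were described in 7 lists by how many passed the test, to be read beside the 4.11% of all genes called higher and the 3.44% called lower. None of the 4 other parts of the complex did, among them the phosphatase Pdp1 at 0.970 and 1.37 CPM (log2 fold change 0.50, adjusted p = 0.304) and the E3-binding protein Pdhx (-0.16, adjusted p = 0.422), with Pdpr, a regulator of the phosphatase, at -0.10 (adjusted p = 0.655). Of 4 genes of lipoate and thiamine supply that were tested, none passed: Lipt1, a lipoyltransferase, had -0.34 (adjusted p = 0.203), Slc19a2, a thiamine carrier, 0.14 (adjusted p = 0.427) and Lipt2 0.19 (adjusted p = 0.682). Of 8 genes of the related 2-oxo acid dehydrogenases, 2 rose and none fell, beside 4.11% and 3.44% of all genes. Dlst, the E2 subunit of the 2-oxoglutarate complex, went from 134.5 ± 6.74 to 208 ± 24.1 CPM (0.63, SE 0.10, adjusted p = 0.00427). Ogdh, its E1, went from 177.5 ± 7.40 to 225 ± 18.3 CPM (0.34, SE 0.09, adjusted p = 0.0432), and Dbt, the E2 of the branched-chain complex, had -0.44 (adjusted p = 0.0952).

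Of 14 tested genes that make or use pyruvate, 1 rose and 1 fell. Pklr, the liver pyruvate kinase and thus a main source of pyruvate, had 132 to 139 CPM in the vehicle group and 49.0 to 64.9 CPM in the ISOGK group, a 2.44-fold fall (log2 fold change -1.28, SE 0.10, adjusted p = 5.22e-05). Slc16a1, a carrier of lactate and pyruvate at the cell surface, had 37.1 to 49.0 CPM in the vehicle group and 67.0, 116, 103 and 138 CPM in ISOGK-treated mice 1 to 4, a 2.45-fold rise (1.29, SE 0.20, adjusted p = 0.00449). Pck1, which draws on oxaloacetate made from pyruvate to form glucose, was at 2080 ± 249.7 and 2963 ± 658 CPM (0.51, adjusted p = 0.0679). Ldha, which interconverts pyruvate and lactate and was picked after its values were seen, was at 746 to 981 CPM in the vehicle group and 1095 to 3085 CPM in the ISOGK group (1.05, SE 0.30, adjusted p = 0.0693). The highest value was that of ISOGK-treated mouse 4, without which the change was 0.65 (adjusted p = 0.0282). Without ISOGK-treated mouse 3 it was 1.22 (adjusted p = 0.0252), and Ldha was called in 5 of 16 alternatives.

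Of 7 tested genes that use acetyl-CoA or citrate, none rose and 2 fell. Acly, which makes cytosolic acetyl-CoA and is the stated target of ISOGK, fell from 119 ± 10.4 to 79.0 ± 8.40 CPM (-0.60, SE 0.10, adjusted p = 0.00591), and Acaca, which makes malonyl-CoA, from 86.1 ± 12.3 to 51.0 ± 9.16 CPM (-0.75, SE 0.14, adjusted p = 0.00801). These values are mRNA levels, and the study found ACLY protein not significantly changed by Western blot in livers of Apoe-/- mice. Acat1, the mitochondrial thiolase, was at 339 ± 19.5 and 417 ± 17.5 CPM (0.30, adjusted p = 0.0637). Of 17 genes of the tricarboxylic acid cycle, 3 rose and none fell, beside 4.11% and 3.44% of all genes. They were Dlst and Ogdh again, and Fh1, the fumarase, from 171 ± 20.5 to 276 ± 77.3 CPM (0.69, SE 0.18, adjusted p = 0.0411), and the calls of Ogdh and Fh1 were each lost in 8 of 16 alternatives. Of 15 factors known to act on Pdk or Mpc genes, 1 rose and 1 fell. Myc was at 3.19 ± 0.703 and 6.45 ± 1.73 CPM (1.02, adjusted p = 0.0183), and the glucocorticoid receptor Nr3c1 at 51.3 ± 4.74 and 38.6 ± 4.32 CPM (-0.41, adjusted p = 0.0376). Ppara, the nuclear receptor known to raise Pdk4 in fasting, also picked after its values were seen, had a log2 fold change of 0.06 (adjusted p = 0.791), and Foxo3 one of -0.37 (adjusted p = 0.119). Only the mRNA of these factors was measured, and their activity was not tested.

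Of these calls, 4 were lost when single mice were left out. Ogdh lost its call without any 1 of the vehicle-treated mice or ISOGK-treated mouse 2 (adjusted p 0.0859 to 0.138), and Fh1 without any vehicle-treated mouse or ISOGK-treated mouse 2 or 4 (0.0658 to 0.111). Nr3c1 lost it without vehicle-treated mouse 1, 2 or 3 or ISOGK-treated mouse 1, 2 or 4 (0.0572 to 0.121), and Myc without vehicle-treated mouse 2 or 3 (0.0664 and 0.0538). Other settings also ended calls: Ogdh with library size alone (adjusted p = 0.207) and without the filter (0.0551), and Fh1 with limma-voom (0.0517) and with library size alone (0.0527). Conversely, Dbt passed without ISOGK-treated mouse 3 (-0.56, adjusted p = 0.0420), and Pck1 (0.61, adjusted p = 0.0324) passed without ISOGK-treated mouse 4. With all mice, DESeq2 called Pck1 (0.51, adjusted p = 0.0231) and Acat1 (0.29, adjusted p = 0.00527). Foxo3 passed in edgeR with the replicate number as a block (-0.36, adjusted p = 0.0471). The list medians were -0.10 for the other complex parts, 0.08 for cofactor supply, 0.25 for the related dehydrogenases, -0.04 for pyruvate sources and uses, -0.12 for acetyl-CoA and citrate uses, 0.10 for the cycle and 0.05 for the factors, beside 0.0018 for all genes.

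**Figure D4:**
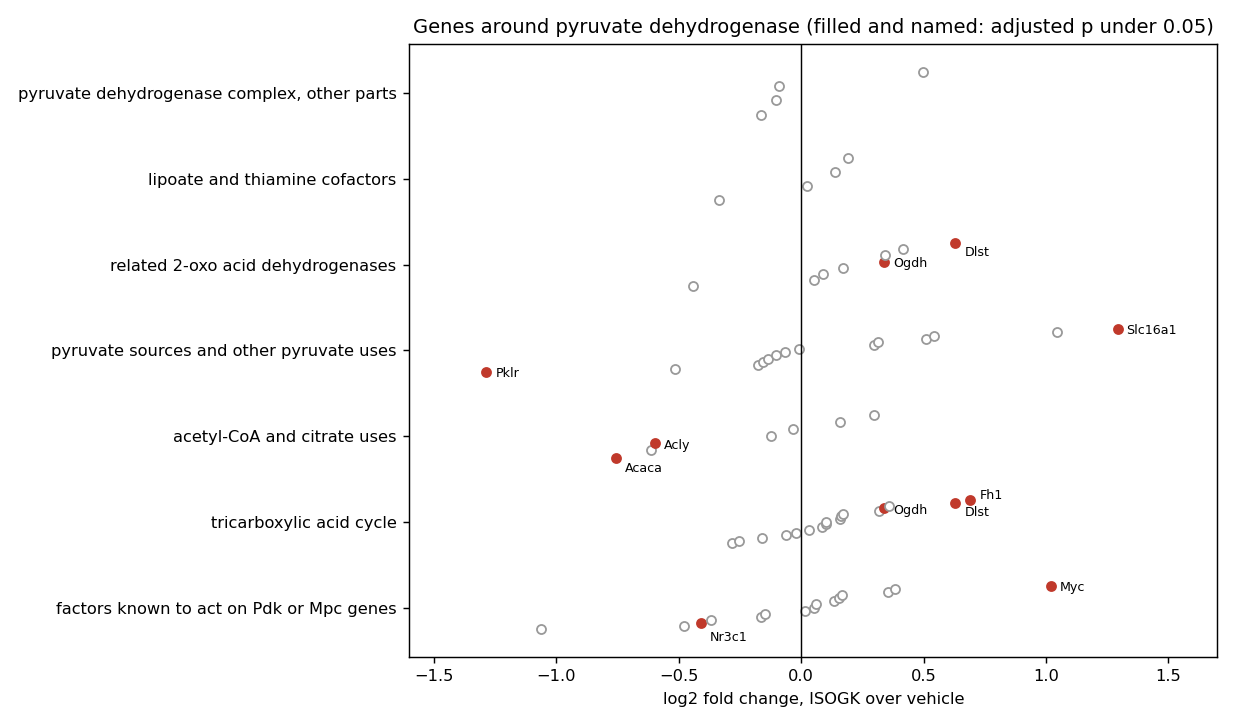
Log2 fold change, ISOGK over vehicle (horizontal axis), of each tested gene in 7 lists (rows), 4 mice per group. Filled and named points passed an adjusted p of 0.05 in edgeR; Pklr lies lowest at -1.28 and Slc16a1 highest at 1.29, and open points are genes that did not pass.

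The genes most like the 2 called kinases were taken by Pearson correlation of log2 CPM over the 8 libraries. Such correlations share the group difference, so the same value after centring each group on its mean is given beside it. For Pdk4 they were Mrfap1 (0.991, centred 0.942), Eapp (0.987, centred 0.939), Zfp207 (0.984, centred 0.924), Slc16a1 (0.978, centred 0.875) and Slc25a12 (0.975, centred 0.836). The Pdk2 list held Spata2l (0.992, centred 0.934), Bco2 (0.989, centred 0.940), Ddah1 (0.986, centred 0.923) and Ttc39c (0.984, centred 0.911). These are descriptions over 8 libraries chosen as the highest of 12307 genes.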

How the data were processed

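Liver RNA was prepared with the SMARTER mRNA-Seq kit and sequenced as single-end Illumina reads, 1 library per mouse. The authors aligned reads with HISAT2 and counted them with StringTie, and the labels name the build mm10. The deposited values are raw counts per gene symbol, not normalized, and the use of strand in counting is not given in the sources used here. Groups and replicate numbers came from the sample labels, and columns named DMSO were taken as vehicle.

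Low counts were removed by filterByExpr (minimum count 10, minimum total 15). After TMM scaling, edgeR 4.0.16 in R 4.3.3 fitted robust quasi-likelihood models, with Benjamini-Hochberg adjustment over all 12307 genes. The depth per library was 17457106 to 24461854 counts, and the common biological coefficient of variation was 0.164. Exact permutation tests used log2 CPM with a prior count of 2. Separate mice rest on the labels, so p-values measure the spread between these libraries. No pair within a group agreed to within sampling noise (chi-square per gene of at least 18.1). Positions and lengths came from GENCODE M21 on GRCm38, the assembly of mm10.

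Genes named besides the members were, in each list, those called and up to 3 with the smallest adjusted p (at most 6 a list), and the 5 most like each called member; any other is said to have been picked after its values were seen. Some genes under this rule are left out of the lists and not reported here. The members and lists were chosen with earlier results of these data known. Alternatives were DESeq2 1.42.0, limma-voom (limma 3.58.1), edgeR scaled by library totals alone or by DESeq2 size factors, 2 other filters, no robust option, the replicate block, each mouse left out, and mean transcript length. The scripts were tested on simulated counts.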

Additional observations from a re-analysis of the deposited data

How the results depend on the processing

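Pdk4 stayed called higher and Pdk2 lower in all 16 alternatives, with log2 fold changes of 1.94 to 2.39 and -0.58 to -0.40 and adjusted p of at most 0.0257 and 0.0378. The replicate block gave 1 member higher and 1 lower, with 2.07 for Pdk4 (adjusted p = 0.0251) and -0.45 for Pdk2 (adjusted p = 0.0246); same-numbered mice did not deviate together (correlations of -0.01 to 0.08), so the numbers were not taken to pair mice. Under that block Ogdh (adjusted p = 0.0828) and Nr3c1 (0.0599) were no longer called. Under DESeq2, 2 members were called higher, the second being Mpc2 at 0.31 (adjusted p = 0.0464). Leaving out each mouse gave 1 to 3 members called higher and 2 to 4 whose groups did not overlap, and log2 fold changes of 0.21 to 0.43 for Mpc1, 0.24 to 0.37 for Mpc2 and -0.10 to 0.02 for Pdha1, with the highest counts and the calls of Mpc1 and Mpc2 without ISOGK-treated mouse 3. In that setting 712 of all 12447 genes tested were called higher. Smaller groups fail to overlap more easily. The share of all genes without overlap was not computed with a mouse left out, so those member counts cannot be judged. Pdha1 reversed to 0.024 and 0.0028 without vehicle-treated mice 1 and 2. With library size alone the median of all genes moved by -0.13 and Dlat reversed to -0.067. With mean transcript length, the shares of the kinases were 21.9% (Pdk1, vehicle), 21.8% (Pdk1, ISOGK), 73.5% (Pdk2, vehicle) and 0.891% (Pdk3, vehicle). Over all genes, 506 were higher and 423 lower, against 765 and 670 with DESeq2, 262 and 804 with library size alone, and 219 and 160 (without vehicle-treated mouse 2) to 712 and 523 (without ISOGK-treated mouse 3). The cause of these shifts was not tested. Depth limits Pdk3, at 12 to 34 counts per library.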
